A study of Mus musculus with 2 samples.

Results

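The cells described here are 574 apical progenitors (APs) of the mouse telencephalic vesicle that held transcripts of *Gsx2*, a homeobox transcription factor gene of the lateral ganglionic eminence (LGE). They had been proposed as LGE progenitors and are called *Gsx2*+ APs. They came from a scRNAseq library of 14283 cell barcodes, in a series of 20110 barcodes over 2 libraries. A barcode was kept with at least 2500 unique molecular identifiers (UMIs, each a transcript molecule) and under 6% of them from mitochondrial genes, which left 11498 barcodes. Of these, 8539 held more UMIs of AP genes (*Sox2*, *Hes1*, *Hes5*, *Vim*, *Nes*, *Fabp7* and *Slc1a3*) than of neuronal genes (*Tubb3*, *Stmn2*, *Dcx*, *Elavl3*, *Gap43* and *Mapt*), and are written A>N cells. The members were chosen by 5 further counts, with *Gsx2* at 1 UMI or more, *Nkx2-1* at 1 or fewer, *Fgf8* and *Fgf17* together at 1 or fewer, *Dlx1* and *Dlx2* together at 1 or fewer, and *Emx1* at 0. They made up 6.72% of the A>N cells (exact Clopper-Pearson 95% interval 6.20 to 7.27%). The levels of these genes are therefore the choice itself and not a result.

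The library was made from the pooled vesicles of 3 wild-type C57BL/6J embryos of 2 litters, with a Chromium 3′ kit of version 3.1 and an input of 20000 cells. The labels give their age as E12, and the methods as E11.5-E12. The other library, used here only to look at the same genes in another tissue, came from septal explants of 8 E11.5 embryos that carried PGKCre and Rosa26YFP and 4 E12.5 embryos that carried Dbx1Cre and Rosa26tdTomato, with a kit of version 2 and an input of 10000 cells, and its labels call the genotype wild-type. PGKCre acts in all cells and Dbx1Cre in the lineage of *Dbx1*+ cells. Each library pools its embryos, so that there were no replicates and no test between cell groups could be made. Cells of the same library are not replicates, and differences are given as folds, the ratio of levels, with exact 95% intervals that cover counting error only.

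The LGE lies in the ventral telencephalon (subpallium), next to the pallium across the pallial-subpallial boundary, and is known as the source of striatal projection neurons and of interneurons of the olfactory bulb. Its APs line the ventricle and are patterned by opposing signals, with sonic hedgehog from the medial side and Wnt, Bmp and pallial factors from the dorsal side. *Gsx2* is known to hold the LGE against a pallial identity and to promote neurogenesis, in which Dlx genes and Notch ligands are switched on in the cells that leave the AP state. Cells already high in *Dlx1* and *Dlx2* were left out by the gate.

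The members held 9866769 UMIs in all, with a median of 10630 per cell (range 3455 to 152384) and 3818 genes per cell. The 7965 other A>N cells had a median of 11311 UMIs. A few very deep cells carried much of the signal, since 32 members with over 50000 UMIs (5.57%) held 26.9% of all their UMIs, and 658 of the other A>N cells (8.26%) held 35.1%. For comparison with the most similar progenitors, 3 groups without overlap were set beside the members. All 3 kept to the same limits on *Fgf8*, *Fgf17*, *Dlx1* and *Dlx2*. They were 934 *Nkx2-1* progenitors (*Nkx2-1* at 2 UMIs or more, no *Emx1*), 631 *Emx1* progenitors (*Emx1* at 2 or more, no *Gsx2* or *Nkx2-1*) and 345 *Sfrp2*/Pax6 progenitors (*Sfrp2* at 2 or more with *Pax6*, no *Emx1*, *Gsx2* or *Nkx2-1*). Their median depths were 11497.5, 27898 and 14944 UMIs. Of the members, 14 were also past the rule used below for non-neural barcodes. Of the barcodes, 1 was shared between the libraries and 0 of the members. Levels are given in CPM, a count divided by the total count of the group of cells and multiplied by 1000000.

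Of the markers proposed for these cells, *Gsx2*, which chose them, stood at 90.6 CPM in the members (Poisson 95% interval 84.8 to 96.7), 12.9 CPM in the other A>N cells and 16.0 CPM in *Nkx2-1* progenitors. *Olig2*, a bHLH factor of ventral progenitors, was not used by the gate. It stood at 39.6 CPM in the members (interval 35.8 to 43.8) and 38.5 CPM in the other A>N cells, a fold of 1.03 (interval 0.927 to 1.14). The level was higher in *Nkx2-1* progenitors, at 129.9 CPM, and lower in *Emx1* and *Sfrp2*/Pax6 progenitors, at 1.84 and 8.98 CPM. *Olig2* thus separated the members from both pallial groups and not from the other A>N cells as a whole.

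An *Olig2* UMI was found in 209 members (36.4%, interval 32.5 to 40.5%). With every cell thinned to 2500 UMIs, the *Olig2* share was 11.85% in the members, 9.54% in the other A>N cells, 28.4% in *Nkx2-1*, 0.317% in *Emx1* and 3.48% in *Sfrp2*/Pax6 progenitors. In 411 barcodes with 20% or more of their UMIs from globins, a reference for free RNA at a median of 5520 UMIs, the thinned *Olig2* share was 1.22% (interval 0.396 to 2.82%).

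*Fgf15*, a secreted growth factor of the ventricular zone, also not used by the gate, stood at 57.2 CPM in the members (interval 52.5 to 62.1) and 36.8 CPM in the other A>N cells, a fold of 1.55 (interval 1.42 to 1.69). *Nkx2-1* progenitors reached 68.7 CPM, *Sfrp2*/Pax6 progenitors 33.4 CPM and *Emx1* progenitors 9.88 CPM. This fold rested on the deepest cells. *Fgf15* stood at 79.2 CPM in the 144 deepest members and between 22.3 and 34.7 CPM in the others grouped by depth, and the fold was 1.09 without the cells over 50000 UMIs. With the gate applied to cells thinned to 2500 UMIs, the fold of *Fgf15* was 0.655. The fold of *Olig2* was 1.71 with the gate at 2500 UMIs per cell, which kept 294 cells, and between 0.849 and 1.17 under the other alternatives. *Olig2* and *Fgf15* thus did not set the members apart from the other A>N cells under every setting, and the cells are named here by *Gsx2* and not by a region.

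**Figure D1:**
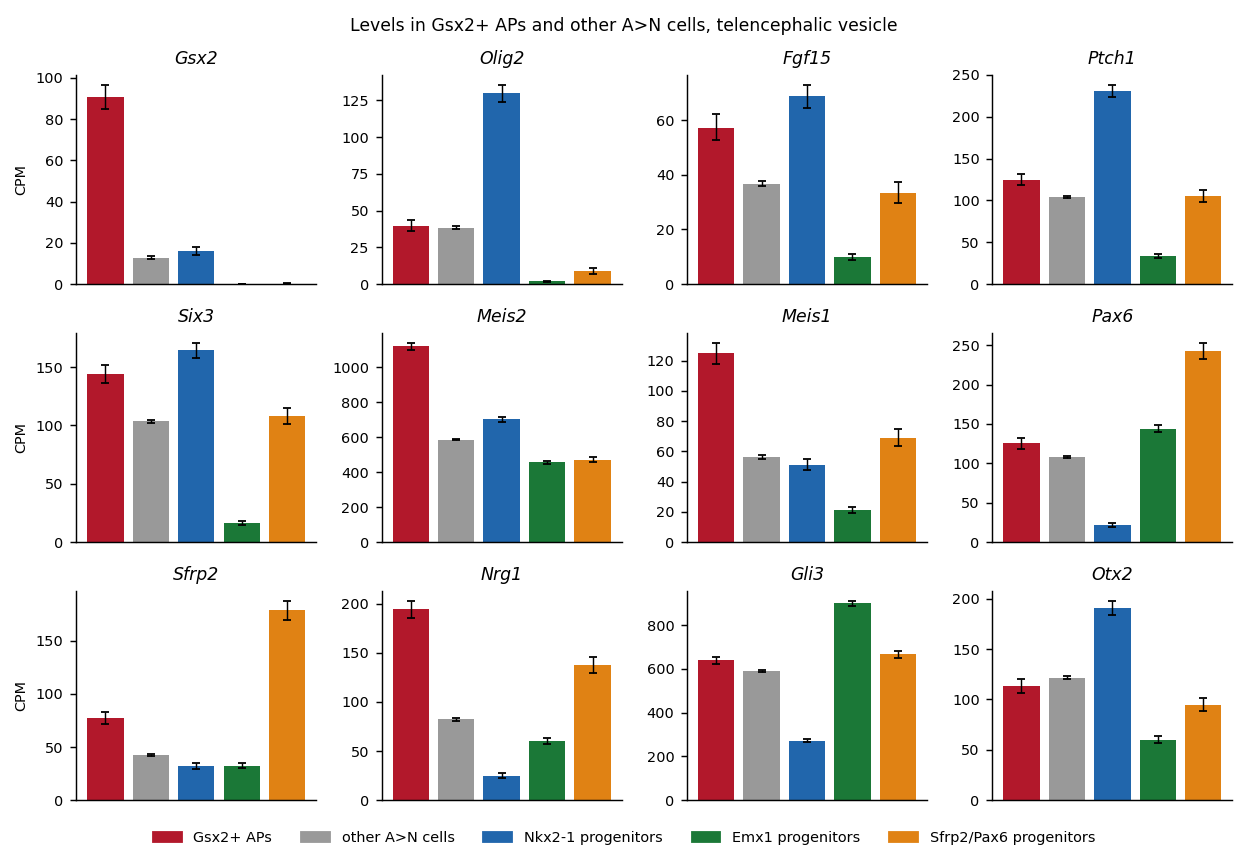
Levels in CPM (vertical axes, linear from 0) of 12 genes in the 574 *Gsx2*+ APs, the 7965 other A>N cells and the 3 groups of similar progenitors, with Poisson 95% intervals as error bars. *Meis2* was highest in the *Gsx2*+ APs, at 1121 CPM, while *Olig2*, at 39.6 CPM, stood between the *Nkx2-1* progenitors at 129.9 CPM and the *Emx1* progenitors at 1.84 CPM.

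Among 17 genes listed for the LGE, 14 were not used by the gate. A gene was called higher or lower at a fold of 1.5 or more in either direction, among 16342 genes with at least 50 UMIs over the members and the other A>N cells. By this rule 3.26% of all genes tested were higher (533 genes) and 14.2% lower (2325 genes), with a median fold of 0.979. Of the 14 LGE genes, 3 were higher (*Fgf15*, *Meis1* and *Meis2*) and 5 lower (*Gsx1*, *Sp8*, *Sp9*, *Dlx5* and *Dlx6*), with a median fold of 1.01. With the gate at 2500 UMIs per cell, the folds of *Gsx1* (1.79), *Sp9* (1.32) and *Dlx5* (1.46) were above 1 and that of *Fgf15* below.

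*Meis2*, a TALE homeobox factor of the LGE and striatum, was the most abundant of the list. It stood at 1121 CPM in the members (interval 1100 to 1142) and 586 CPM in the other A>N cells, a fold of 1.91 (interval 1.87 to 1.95), and at 703, 457 and 471.5 CPM in *Nkx2-1*, *Emx1* and *Sfrp2*/Pax6 progenitors. A *Meis2* UMI was found in 556 of 574 members. At 2500 UMIs per cell the median member held 2 *Meis2* UMIs (range 0 to 14) and the median of the other A>N cells was 1. Its relative *Meis1* stood at 125 CPM against 56.4 CPM, a fold of 2.21 (interval 2.08 to 2.35), and was lower in each of the 3 groups, at 51.3, 21.2 and 69.0 CPM. Over all alternatives the fold of *Meis2* lay between 1.64 and 1.98 and that of *Meis1* between 1.78 and 2.33.

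*G630016G05Rik*, a non-coding gene that starts 1385 bp from *Meis2* on the opposite strand, went the same way, at 22.7 CPM in the members and 10.6 CPM in the other A>N cells, a fold of 2.14 (interval 1.85 to 2.46). *Meis2* lies on the minus strand of chromosome 2 (GRCm38, chr2:115863064-116065839). The 250 bases before each RefSeq start are shown because the genes of this head-to-head pair were both higher in the members, at chr2:116064620-116064869 (minus strand) for *Meis2* and chr2:116066975-116067224 (plus strand) for *G630016G05Rik*. The *Meis2* window lies inside the longer gene model of GENCODE. Capitals mark matches on either strand of TGACAG, a core motif bound by Meis factors, TAATTA, a homeobox core, and CAGCTG, an E-box bound by bHLH factors. These letters are present in 15.9%, 4.84% and 13.0% of 32851 windows of this length before mouse gene starts, and do not overlap each other here. The *G630016G05Rik* window held 1 match and the *Meis2* window 0.
Meis2: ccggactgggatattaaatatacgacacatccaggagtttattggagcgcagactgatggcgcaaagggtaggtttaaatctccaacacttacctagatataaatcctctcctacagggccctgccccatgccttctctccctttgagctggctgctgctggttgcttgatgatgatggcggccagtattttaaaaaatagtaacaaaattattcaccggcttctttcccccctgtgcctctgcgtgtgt
G630016G05Rik: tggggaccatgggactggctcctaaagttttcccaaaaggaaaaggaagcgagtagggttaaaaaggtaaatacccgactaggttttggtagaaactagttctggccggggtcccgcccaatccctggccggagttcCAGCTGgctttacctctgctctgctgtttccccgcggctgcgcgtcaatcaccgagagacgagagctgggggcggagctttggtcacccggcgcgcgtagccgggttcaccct

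*Six3*, a homeobox factor of the ventral and rostral forebrain, was at 144 CPM against 103 CPM, a fold of 1.39 (interval 1.32 to 1.47), with 164 CPM in *Nkx2-1* and 16.1 CPM in *Emx1* progenitors. *Vax1* (fold 1.11, interval 0.880 to 1.39), *Etv1* (fold 0.988) and *Rarb* (fold 0.828) passed neither threshold. The *Rarb* fold was 1.94 without non-neural barcodes in the comparison and 0.264 with the gate at 2500 UMIs per cell. *Sp8* was lower in the members, at 8.82 CPM against 29.5 CPM, and its level was highest in *Emx1* progenitors, at 51.2 CPM. *Sp9* (8 UMIs), *Dlx5* (16 UMIs), *Dlx6* (4 UMIs) and *Gsx1* (15 UMIs) were near the limit of detection in the members. *Sp9*, *Dlx5* and *Dlx6* accompany *Dlx1* and *Dlx2*, which the gate held low.

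Genes of other regions were mostly low. The gate had barred *Emx1* and limited *Nkx2-1*, *Fgf8* and *Fgf17*, while the other A>N cells kept the cells so removed. Genes that go with these could thus be low through the choice, and their counts are not independent of it. Of 10 pallial genes not used by the gate, 0 were higher and 8 lower, with a median fold of 0.383. These included *Emx2* (fold 0.533), *Dmrta2* (0.265), *Dmrt3* (0.120), *Neurog2* (0.275), *Tfap2c* (0.416) and *Eomes* (0.338). *Pax6* and *Lhx2* were not among them. *Pax6*, which is known to form a gradient that reaches into the LGE from the pallium, was at 125 CPM in the members and 108 CPM in the other A>N cells. Its level was 144 CPM in *Emx1* and 21.2 CPM in *Nkx2-1* progenitors, and the members lay between these groups, nearer to the former. The *Sfrp2*/Pax6 progenitors, at 243 CPM, were chosen with *Pax6*, so that their level is not a result. *Lhx2* was at 277 against 282 CPM.

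Of 6 genes of the medial ganglionic eminence not used by the gate, 4 were lower and 0 higher, with a median fold of 0.255. *Shh* had 16 UMIs in the members (1.62 CPM) and 72.9 CPM in *Nkx2-1* progenitors. *Lhx6* had 0 UMIs in the members, where 3 counts would make 0.304 CPM, and the other A>N cells held 0.843 CPM. *Otx2*, at 113 CPM, was close to the 122 CPM of the other A>N cells and below the 191 CPM of *Nkx2-1* progenitors. *Sulf1*, a modifier of heparan sulphate, was at 21.7 CPM against 150.3 CPM, and was at 65.3 CPM or more in each of the 3 groups.

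Of 11 genes of the cortical hem, 9 were lower and 0 higher, with a median fold of 0.164. *Wnt8b* was at 12.1 CPM against 115 CPM, *Rspo3* at 42.0 against 258 CPM and *Wnt3a* at 0.507 against 8.72 CPM. Single cells weighed in these low levels, since 115 of the 414 *Rspo3* UMIs of the members came from 1 cell. The levels were lower still in *Nkx2-1* progenitors, at 5.33 CPM for *Wnt8b*, 19.65 CPM for *Rspo3* and 0.267 CPM for *Wnt3a* (4 UMIs). Of 7 septal genes not used by the gate, 4 were lower (*Fgf18*, *Zic4*, *Spry1* and *Etv4*) and 0 higher, with a median fold of 0.623.

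The genes of the antihem, the signalling domain at the pallial-subpallial boundary, were mixed, with 3 of 6 higher, 2 lower and a median fold of 1.23. *Nrg1*, an ErbB ligand, was at 194 CPM in the members against 82.5 CPM, a fold of 2.35 (interval 2.24 to 2.47), with 25.2 CPM in *Nkx2-1*, 60.5 CPM in *Emx1* and 137.5 CPM in *Sfrp2*/Pax6 progenitors. *Sfrp2*, a secreted Wnt antagonist, was at 77.5 against 42.6 CPM, a fold of 1.82 (interval 1.69 to 1.96), and was found in 269 members (46.9%). *Tgfa* had 17 UMIs and an interval that included 1 (0.938 to 2.73). *Dbx1* and *Fgf7* were lower, with 24 and 3 UMIs in the members. *Dbx1* was at 2.43 CPM in the members, 7.60 CPM in *Nkx2-1* and 10.5 CPM in *Sfrp2*/Pax6 progenitors.

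Genes were then named by a fixed rule, as the 15 with the highest and the 10 with the lowest fold over the other A>N cells, ranked by the bound of the interval nearest to 1. At the top of the ranking stood *Gja4*, but all 50 of its UMIs came from 1 member. That cell, 1 of the 14 non-neural ones, also held all 22 UMIs of *Cldn5* and 30 of the 32 UMIs of *Cdh5*, markers of vessels. The others were *Kcnip4* (fold 3.15), a regulator of potassium channels, the non-coding genes *Gm29260* (3.08), *Gm5532* (3.54), *Gm28175* (2.59) and *Gm44593* (2.63), *Hs3st1* (3.498), a heparan sulphate sulfotransferase, *Fstl5* (2.87), *Tll1* (3.30), a metalloprotease of the *Bmp1* family, *Cpa4* (3.02), *Ermn* (2.90), *Nrg1* (2.35), *Apela* (2.56), a ligand of the apelin receptor, *Atxn1* (2.28) and *Epha5* (2.32), an ephrin receptor.

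The spread over the members differed between these genes. An *Atxn1* UMI was found in 453 of 574 members, with 277 CPM against 122 CPM, and an *Fstl5* UMI in 281, with 123 CPM against 42.9 CPM (interval of the fold 2.69 to 3.05). *Nrg1* was found in 243 members, and 157 of its 1914 UMIs came from 1 cell. *Kcnip4* was found in 136 members, and 133 of its 928 UMIs came from 1 cell. Without cells over 50000 UMIs the fold of *Kcnip4* was 2.56, and with the gate at 2500 UMIs per cell it was 1.80. *Kcnip4*, *Gm29260*, *Gm5532*, *Tll1*, *Nrg1* and *Epha5* were also frequent in *Sfrp2*/Pax6 progenitors, where the fold of the members lay between 1.20 (*Epha5*) and 1.41 (*Nrg1*), and they set the members apart from *Nkx2-1* and *Emx1* progenitors, with folds of 3.21 (*Nrg1* over *Emx1*) or more. *Apela* was instead close to its level in *Nkx2-1* progenitors, at a fold of 1.02, with folds of 36.5 over *Emx1* and 9.99 over *Sfrp2*/Pax6 progenitors.

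To find genes that stood out against each of the similar groups, the smallest of the 3 folds was taken. Of 14018 genes with enough UMIs, 114 (0.813%) were at a fold of 1.5 or more over every group. Ranked by the smallest lower bound of the 3 intervals, the 10 that led were *Gja4* (1 cell), *Esrrg*, *Vwc2*, *Chrm2*, *Fstl5*, *Kitl*, *Ermn*, *Hs3st1*, *Pak3* and *Fzd8*. *Esrrg*, an orphan nuclear receptor, was at 32.0 CPM in the members and at 11.53, 6.52 and 12.2 CPM in *Nkx2-1*, *Emx1* and *Sfrp2*/Pax6 progenitors. *Vwc2*, a secreted Bmp antagonist, was at 39.2 CPM and at 13.3, 8.48 and 15.6 CPM, and its fold over the other A>N cells, 2.33, lay between 1.39 and 2.42 over the alternatives. *Fstl5* had its smallest fold, 2.09, over *Sfrp2*/Pax6 progenitors. *Fzd8*, a Wnt receptor, was at 101 CPM and at 53.2, 40.3 and 49.2 CPM. *Pak3*, a kinase of the cytoskeleton, was at 319 CPM and at 158, 169.8 and 165 CPM. *Chrm2*, a muscarinic receptor, rested on 60 UMIs. *Kitl*, the ligand of *Kit*, had a fold of 2.33 or more over each of the groups and 1.12 over all other A>N cells, which became 0.344 with the gate at 2500 UMIs per cell.

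**Figure D2:**
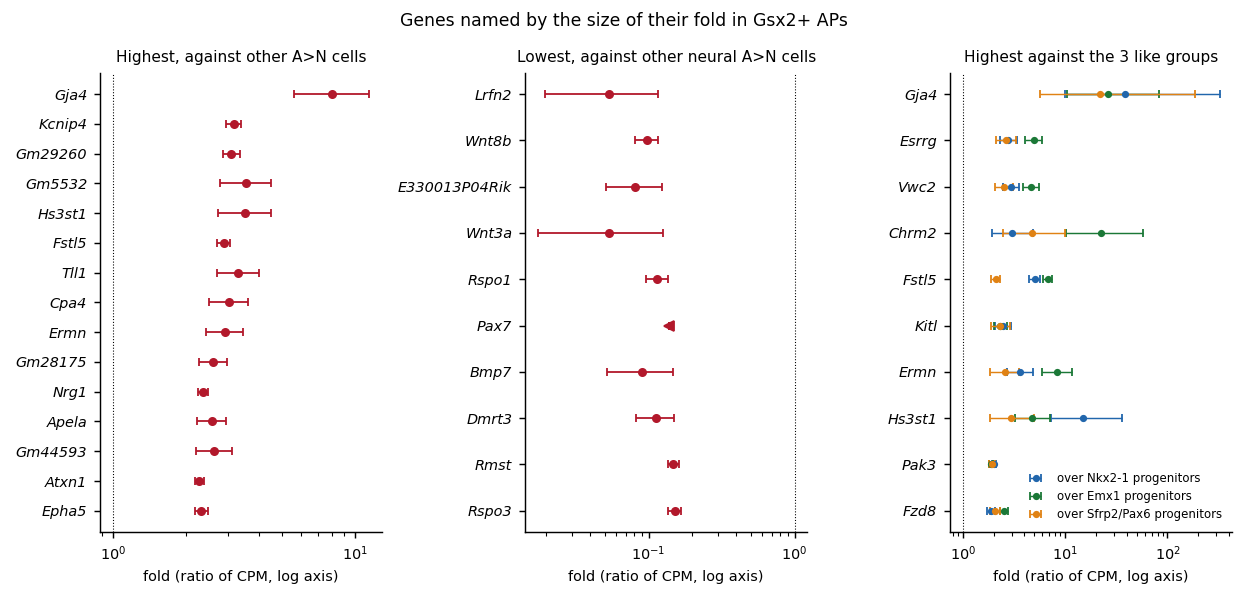
Folds (ratio of CPM, logarithmic axes) with 95% counting intervals for the 15 highest genes against the other A>N cells (left), the 10 lowest against those without non-neural barcodes (middle) and the 10 leading genes against each of the 3 similar groups (right). The arrowhead of *Pax7* marks the upper bound of a gene with 0 UMIs in the members, and the folds of *Gja4* rest on 1 cell.

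The 10 lowest genes under the same rule were mostly not neural. *Tyrobp*, *Mrc1*, *C1qc*, *C1qb*, *Plac8*, *Lyz2*, *Pf4* and *S100a8* are genes of macrophages and other myeloid cells, and 0 UMIs were found in the members for 6 of them, where 3 counts would make 0.304 CPM. Without non-neural barcodes (at least 5 UMIs of 10 mesenchyme, vessel and macrophage genes, or 5% of UMIs from globins), 7069 other A>N cells remained. *Mrc1*, which that rule did not use, was at 4.66 CPM before and 0.166 CPM after it, and *Lyz2* at 3.09 and 0.0577 CPM. *Hpse2* and *Lrfn2* completed the 10. Another ranking, added after the values were seen, used the 7069 remaining cells. Its 10 lowest genes were *Lrfn2*, *Wnt8b*, *E330013P04Rik*, *Wnt3a*, *Rspo1*, *Pax7*, *Bmp7*, *Dmrt3*, *Rmst* and *Rspo3*. Among them *Lrfn2*, an adhesion molecule of synapses, had 6 UMIs in the members and 22.1 CPM in *Emx1* progenitors. Over the alternatives the fold of *Lrfn2*, 0.0566 against all other A>N cells, lay between 0.0395 and 0.540. *Rmst*, a non-coding gene, was at 53.9 against 364 CPM. *Pax7* had 0 UMIs in the members and 2.72 CPM in the 7069 cells. Against *Nkx2-1* progenitors the 10 genes were not all low. The folds there were 2.26 for *Wnt8b*, 2.14 for *Rspo3*, 1.90 for *Wnt3a*, 1.76 for *E330013P04Rik*, 1.26 for *Dmrt3* and 1.14 for *Rspo1*. They were 0.738 for *Bmp7*, 0.723 for *Rmst* and 0.702 for *Lrfn2*, and *Pax7* had 4 UMIs in that group.

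A ranking added in the same way took the genes lowest against each of the 3 similar groups. It gave *AW047730*, *Sulf1*, *Gm3764*, *Slit2*, *Pcsk1n*, *Spry1*, *Ncam2*, *Maf*, *Kctd8* and *Igfbp5*. *Slit2*, a ligand of Robo receptors, was at 103 CPM in the members and at 575.5, 322 and 245 CPM in *Nkx2-1*, *Emx1* and *Sfrp2*/Pax6 progenitors. *Spry1*, a feedback inhibitor of FGF signalling, was at 11.45 CPM and between 22.4 and 24.6 CPM in the groups. *Gm3764*, a non-coding gene, was at 78.5 CPM and at 192 CPM or more.

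Some of the genes called higher lie near each other, and these pairs were chosen after their values were seen. *Pou3f3*, a POU factor of neural progenitors, was at 165 CPM against 108 CPM, a fold of 1.52 (interval 1.45 to 1.60). Its antisense neighbours *Pantr1*, 925 bp away, and *Pantr2* had folds of 1.92 and 2.03, and *Gm28175* and *Gm29260*, 391 and 756 kb away on the same chromosome, folds of 2.59 and 3.08. *Pou3f3* and *Gm29260* went apart elsewhere, since the septal explants gave folds of 1.62 for *Pou3f3* and 0.254 for *Gm29260* (1 UMI), and the division by *Pax6* and *Olig2* described below gave 1.06 and 16.4. *Dpyd*, an enzyme of pyrimidine breakdown, had a fold of 1.94 and *Gm26871*, 32.1 kb away, a fold of 2.27. Of the genes called higher, 21.1% span over 100 kb of the genome, of those called lower 17.5% and of all genes tested 14.6%, while the median spans were 20.1, 20.8 and 23.2 kb. *Kcnip4* spans 1135406 bp and *Nrg1* 1069479 bp. Whether intronic reads were counted is not given in the sources used here, and the part of gene length in these folds was not tested.

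Of 20 genes of the Notch pathway not used by the gate, 0 were higher and 4 lower (*Dll3*, *Mfng*, *Hey2* and *Heyl*), with a median fold of 0.810. The ligand *Dll1* was at 27.6 against 38.4 CPM, a fold of 0.718 (interval 0.633 to 0.811) that became 1.11 with the gate at 2500 UMIs per cell, and *Dll3*, which is known to rise in cells that leave the AP state, at 2.64 against 9.27 CPM, a fold of 0.284 that became 1.21 under that setting. The receptor *Notch1* was at 158 against 127 CPM, a fold of 1.24, and *Notch2* at 37.1 against 53.4 CPM. The Notch target *Hes5*, part of the gate, was at 112 CPM, while *Nkx2-1* progenitors held 293 CPM. *Nrarp*, another target, was at 59.1 CPM in the members and 97.1 CPM in *Nkx2-1* progenitors. *Hey2* and *Heyl* had 3 and 2 UMIs in the members.

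In the hedgehog pathway, 4 of 12 genes were lower (*Shh*, *Hhip*, *Cdon* and *Gas1*) and 0 higher, with a median fold of 1.04. The target and receptor *Ptch1* was at 125 CPM in the members, at 231 CPM in *Nkx2-1*, 33.9 CPM in *Emx1* and 105 CPM in *Sfrp2*/Pax6 progenitors. *Gli1*, which reads the same signal, was at 6.38 CPM in the members, 8.86 CPM in *Nkx2-1* and 1.17 CPM in *Emx1* progenitors. The repressor *Gli3* was at 638 CPM, above the 273 CPM of *Nkx2-1* and below the 899.6 CPM of *Emx1* progenitors. For these 3 genes the members lay between the ventral and the dorsal group. The co-receptors *Cdon* (40.1 against 87.8 CPM) and *Gas1* (77.1 against 167 CPM) were lower than in the other A>N cells, yet above *Nkx2-1* progenitors, at 21.2 and 24.1 CPM.

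Of 12 FGF genes not used by the gate, *Fgf15* was higher and 5 were lower (*Fgf18*, *Spry1*, *Dusp6*, *Etv4* and *Il17rd*), with a median fold of 0.736. *Dusp6*, *Spry1*, *Etv4* and *Il17rd* are known as targets or feedback inhibitors of FGF signalling. The receptor *Fgfr2* was at 256 against 200.0 CPM, a fold of 1.28, and *Fgfr3* at 23.7 against 32.9 CPM. The gate had removed cells with *Fgf8* and *Fgf17*, the FGF ligands of the septum. Among 12 measured Wnt antagonists, *Sfrp2* was higher and 7 were lower, with a median fold of 0.540. *Axin2*, a target as well as an inhibitor of Wnt signalling, was at 14.3 CPM in the members, 67.2 CPM in *Emx1* and 7.60 CPM in *Nkx2-1* progenitors.

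Of the genes of retinoid signalling, *Aldh1a1*, *Aldh1a2* and *Cyp26a1*, the enzymes that make or remove retinoic acid, had 0 UMIs in the members, and *Aldh1a3* had 2. *Crabp1*, a binding protein of retinoic acid, was at 14.9 against 68.2 CPM, and at 2.50 against 6.86 CPM without non-neural barcodes on both sides.

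Several genes of differentiation were lower in the members. The gate had limited *Dlx1* and *Dlx2* and barred *Emx1*, so that genes which go with these could be low through the choice. Of 19 bHLH and neurogenic genes not used by the gate, 0 were higher and 9 lower, with a median fold of 0.672. The neuronal factors *Neurog1*, *Neurog2*, *Neurod1*, *Neurod4* and *Nhlh1* were lower. *Gadd45g*, which marks cells about to leave the cycle, was at 49.2 against 89.7 CPM and *Rgs16* at 10.1 against 17.6 CPM. *Id1* and *Id3*, also among the 9 and known as targets of Bmp signalling, were at 20.4 against 78.5 CPM and 81.2 against 359.8 CPM. Their relative *Id4* was at 592 against 405 CPM, a fold of 1.46. Markers of GABAergic neurons summed to 13.5 CPM in the members and 36.0 CPM in the other A>N cells, and to 8.97 and 20.7 CPM without non-neural barcodes on both sides. Of those 5 genes, 4 were lower, and the most abundant was *Ebf1*, which other cell types express as well.

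Genes of S phase (18 genes) and of G2 and mitosis (19 genes) were nowhere past the threshold. Their median folds were 1.06 and 1.12, and every gene of both lists had a fold over 1, between 1.01 and 1.21 for S phase and between 1.03 and 1.18 for G2 and mitosis. The summed levels were 3240 CPM in the members and 3031 CPM in the other A>N cells for S phase, and 4406 and 3975 CPM for G2 and mitosis. *Ccnd1*, a D cyclin, was at 636 CPM in the members, 945 CPM in *Nkx2-1*, 349 CPM in *Emx1* and 433.5 CPM in *Sfrp2*/Pax6 progenitors. Of the cell cycle inhibitors, *Cdkn1c* (135.5 against 239 CPM) and *Cdkn1a* (26 UMIs) were lower.

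Among 13 radial glia genes not used by the gate, 2 were higher, 0 lower, and the median fold was 1.17. *Ednrb*, an endothelin receptor, was at 65.8 against 34.8 CPM (fold 1.89, interval 1.74 to 2.05) and at 71.6, 6.49 and 46.1 CPM in *Nkx2-1*, *Emx1* and *Sfrp2*/Pax6 progenitors. *Ptprz1*, a receptor phosphatase, was at 646 against 368 CPM (fold 1.76). *Hmga2*, which is known to decline as APs age, was at 695 CPM in the members and 1605 CPM in *Emx1* progenitors.

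**Figure D3:**
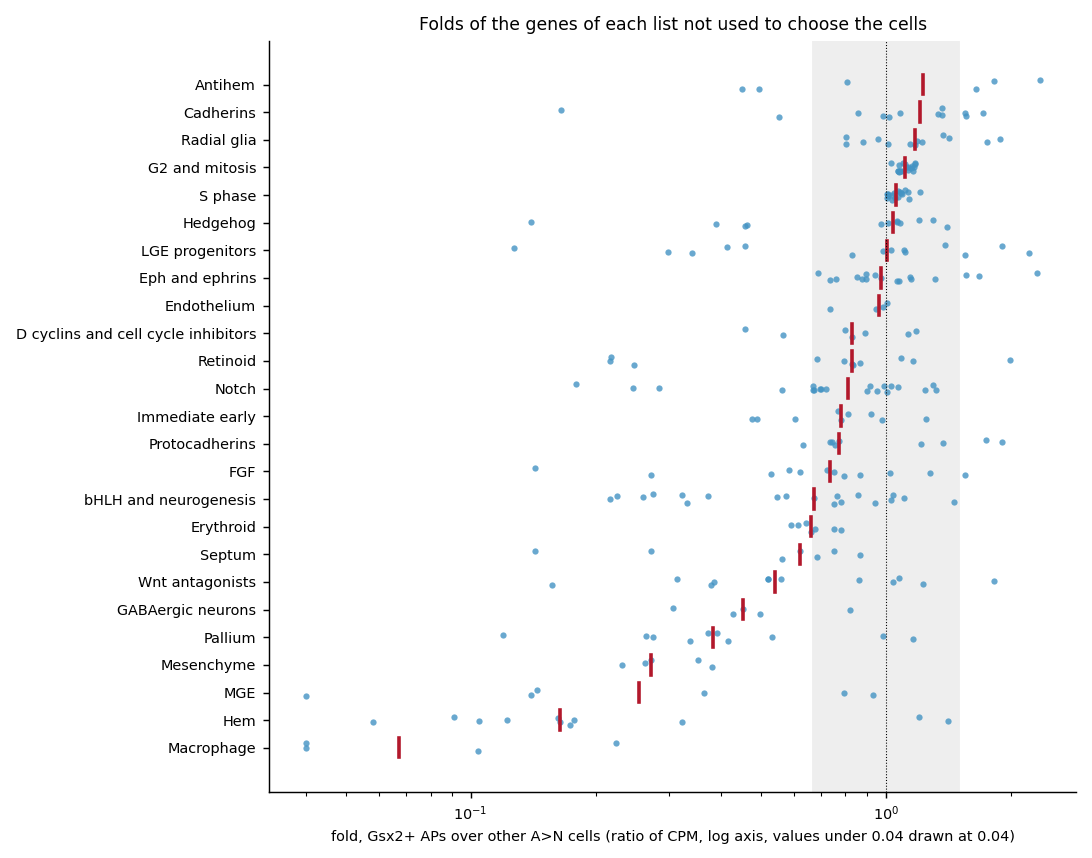
Fold of each listed gene that passed the filter and was not used by the gate (points, logarithmic axis, *Gsx2*+ APs over other A>N cells), with the median of each list as a red bar, folds under 1.5 in either direction shaded and the lowest folds drawn at the left edge of the range. Medians ran from 1.23 for the antihem list to 0.164 for the hem and 0.0672 for the macrophage list.

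Adhesion genes were of interest to the study, which examined *Pcdh8*. Of 9 protocadherin genes, 2 were higher (*Pcdh8* and *Pcdh10*), 1 lower (*Pcdh1*, 4 UMIs), and the median fold was 0.770. *Pcdh8* was at 11.55 CPM in the members (114 UMIs) and 6.08 CPM in the other A>N cells, a fold of 1.90 (interval 1.55 to 2.31), with 7.13, 2.15 and 10.2 CPM in *Nkx2-1*, *Emx1* and *Sfrp2*/Pax6 progenitors. The *Pcdh8* fold lay between 1.31 and 2.16 over the alternatives. A *Pcdh8* UMI was found in 95 members (16.6%), and with cells thinned to 2500 UMIs in 1.92% of the members and 1.38% of the other A>N cells. *Pcdh10* was at 57.7 against 33.1 CPM (fold 1.74, interval 1.59 to 1.90). *Pcdh9* and *Pcdh19* were at 328 and 159.6 CPM, with folds of 1.22 and 1.38.

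Of 12 cadherins, 3 were higher (*Cdh6*, fold 1.55, *Cdh8*, 1.57, and *Cdh12*, 31 UMIs) and 2 lower (*Cdh1* and *Cdh3*, 4 UMIs each), with a median fold of 1.21. *Cdh2*, N-cadherin, was at 678.5 against 625 CPM. Of 17 genes of Eph receptors and ephrins that passed the filter, 3 were higher (*Epha3*, *Epha5* and *Ephb1*), 0 lower, and the median fold was 0.977. *Epha3* was at 558 CPM in the members, 214 CPM in *Nkx2-1*, 185.5 CPM in *Emx1* and 961 CPM in *Sfrp2*/Pax6 progenitors. *Ephb1* went the other way, at 222 CPM in the members, 344 CPM in *Nkx2-1* and 40.0 and 45.4 CPM in the other two groups.

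The 5 mesenchyme genes summed to 29.5 CPM in the members and 107.5 CPM in the other A>N cells, led by *Col3a1*, and all 5 were lower. The 4 endothelial genes summed to 12.7 and 13.95 CPM. By the fold, 0 of the 4 were past the threshold. The 4 macrophage genes summed to 1.52 and 23.4 CPM, with *Tyrobp* at 0 in the members. The 7 globins summed to 5392 CPM in the members and 7973 CPM in the other A>N cells, led by *Hbb-y*, of which a UMI was found in all 574 members, and to between 1314 and 4338 CPM in the 3 similar groups. These directions depended on the non-neural barcodes, which the mesenchyme, vessel, macrophage and globin genes themselves define. With the barcodes left out of the other A>N cells alone, the sums there were 8.69 CPM for mesenchyme, 2.67 CPM for endothelium, 0.951 CPM for macrophages and 2248 CPM for globins, all below the members. With them left out on both sides, the members held 5.94, 2.29, 1.56 and 2457 CPM, and *Col3a1* had a fold of 1.23. Of 9 immediate early genes, 3 were lower (*Fos*, *Junb* and *Egr1*) and 0 higher. With non-neural barcodes left out of the members (560 cells) and of the other A>N cells, the fold of *Meis2* was 1.80, that of *Meis1* 2.12, of *Nrg1* 2.23, of *Pcdh8* 1.82 and of *Olig2* 0.985.

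The members were not uniform. A *Pax6* UMI was found in 307 members (53.5%) and an *Olig2* UMI in 209 (36.4%). Both genes were found in 105 cells, and the product of both shares gives 112. Divided by detection, 202 members held only *Pax6*, 104 only *Olig2* and 163 neither. These classes were made after the values had been seen and differ in depth, with medians of 12415, 9708 and 9111 UMIs and 17767 UMIs for the cells with both, so that a cell without a UMI of a gene may still express it. Between the cells with only *Pax6* and those with only *Olig2*, of 8888 genes with at least 50 UMIs, 593 (6.67%) were at a fold of 1.5 or more and 280 (3.15%) at the inverse.

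The genes given here were chosen after their values were seen. *Nrg1* was at 354 CPM in the cells with only *Pax6* and 83.03 CPM in the cells with only *Olig2*, a fold of 4.26 (interval 3.50 to 5.24). *Kcnip4* was at 184 against 13.8 CPM, *Pcdh9* at 524 against 116 CPM (fold 4.52), *Gm29260* at 151 against 9.23 CPM and *Epha5* at 193 against 49.97 CPM. *Sema3a*, a repulsive guidance cue, was found in 71 of 202 and 5 of 104 cells. *Tfap2c*, a pallial factor, was at 31.4 against 3.08 CPM, and *Hs3st1* at 15.4 CPM against 0 UMIs. The pallial genes *Neurog2* (17.1 against 1.54 CPM) and *Dmrta2* (35.8 against 5.38 CPM) were also higher with only *Pax6*. Of the hem genes, *Rspo2* had 153 against 0 UMIs, in 13 cells. *Rspo3* was at 65.0 against 4.61 CPM, in 17 and 5 cells. *Sfrp2* was at 86.2 against 38.4 CPM. Globin RNA went along with this split, with *Hbb-bh1* at 693 against 156 CPM (fold 4.44), *Hba-x* at 2363 against 653.5 CPM (3.62) and *Hbb-y* at 4441 against 1827 CPM (2.43), and its part in these folds was not tested.

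Other genes were higher in the cells with only *Olig2*. *Ptch1* was at 169.9 against 95 CPM in those with only *Pax6*, *Ccnd1* at 862 against 489 CPM and *Fgf15* at 86.9 against 33.3 CPM. *Cdkn1c* was at 191 against 74.4 CPM and *Six3* at 178 against 116 CPM. *Nnat* was at 1139 against 443 CPM, and *Six3os1*, the antisense neighbour of *Six3*, at 109 against 36.9 CPM. *Meis2* was at 1139 and 1059 CPM (fold 1.08, interval 1.01 to 1.14) and *Meis1* at 137 and 92.3 CPM. The cells with both genes were close to those with only *Olig2* in *Fgf15* (85.4 CPM) and *Nrg1* (95.1 CPM), and to those with only *Pax6* in *Sfrp2* (99.3 CPM).

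**Figure D4:**
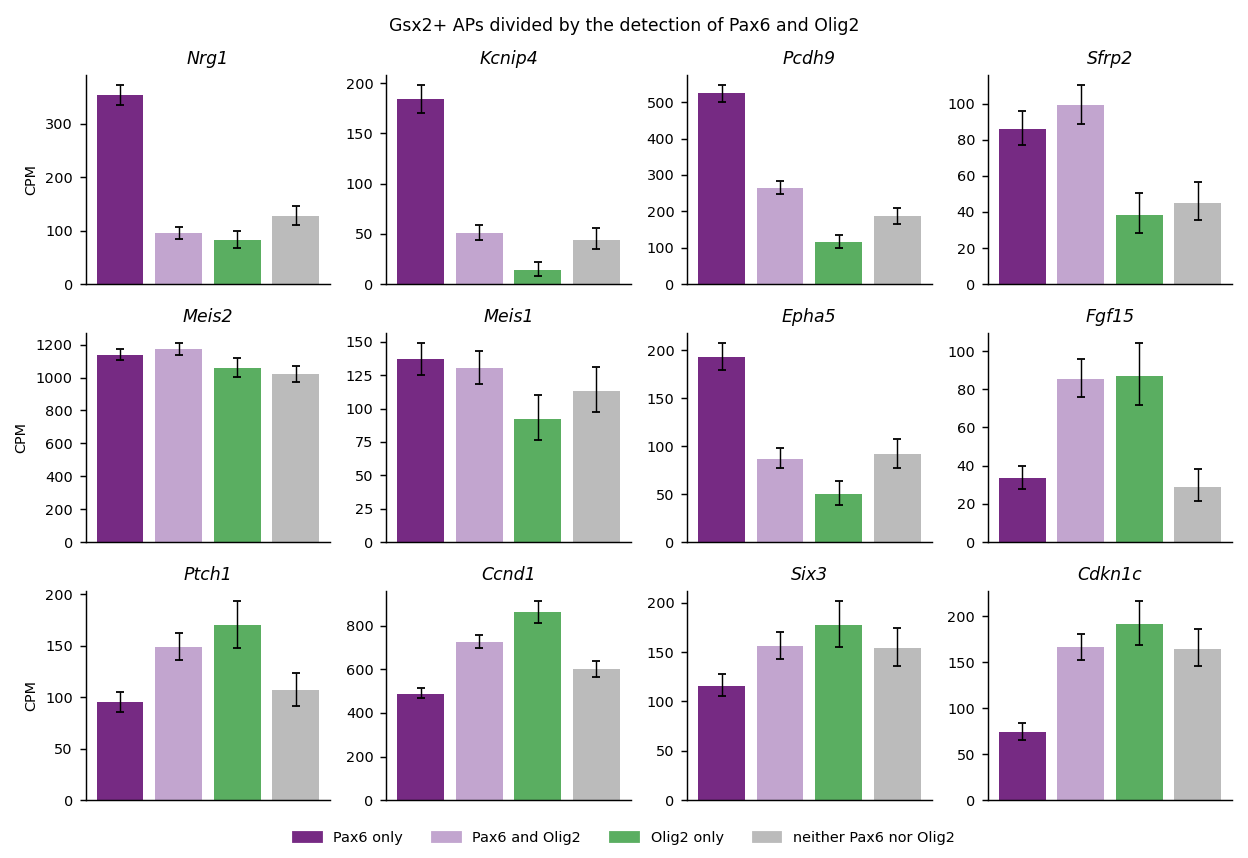
Levels in CPM (vertical axes, linear from 0) of 12 genes in the *Gsx2*+ APs divided into 202 cells with only *Pax6*, 105 with both genes, 104 with only *Olig2* and 163 with neither, with Poisson 95% intervals as error bars. *Nrg1*, *Kcnip4* and *Pcdh9* were highest in the cells with only *Pax6*, and *Ptch1* and *Ccnd1* in those with only *Olig2*, while *Meis2* lay between 1019 and 1175 CPM in all 4.

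*Gsx2* itself was at 1 UMI in 395 members, 2 in 112 and 3 or more in 67, which is the threshold of the gate from the inside. The cells with 3 or more had a median of 15304 UMIs and those with 1 had 10108. Between them, 283 of 10034 genes (2.82%) were at a fold of 1.5 or more and 326 (3.25%) at the inverse. *Nrg1* was at 298.5 CPM with 3 or more and 142 CPM with 1, *Kcnip4* at 170.1 and 75.3 CPM and *Pcdh9* at 579 and 252 CPM. *Foxd1*, a forkhead factor, had 1 UMI in the former and 109 in the latter, *Rspo3* 14 and 281 (6.65 and 48.3 CPM), and *Wls*, which is needed for Wnt secretion, 6 and 184 (2.85 and 31.6 CPM). *Meis2* was at 1311 and 1071 CPM. Globin RNA went the other way, with *Hbb-y* at 788 and 3901 CPM and *Hba-x* at 292 and 1844 CPM, as did *Col1a2* of mesenchyme at 1.90 and 8.94 CPM, and their part in these folds was not tested.

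Cells that failed only 1 condition of the gate showed its edges, and were described without a test. The largest class, 3751 cells, failed only for lack of a *Gsx2* UMI, at a median of 9639 UMIs. *Meis2* was at 482 CPM, *Olig2* at 19.97 CPM and *Rspo3* at 312.5 CPM in them. For 372 cells only *Dlx1* and *Dlx2* were too high. These held *Gadd45g* at 177 CPM (49.2 CPM in the members) and *Meis2* at 1312 CPM (1121 CPM). Of 11760 genes compared, 239 (2.03%) were at a fold of 1.5 or more in the members and 201 (1.71%) at the inverse. Genes higher in the members included the vessel genes *Gja4*, *Flt1* (49 UMIs in 2 cells) and *Pecam1* (fold 2.92), the mesenchyme genes *Twist1* (5.27), *Col3a1* (2.78) and *Lum* (3.36), and the globins *Hbb-y* (2.52), *Hbb-bh1* (3.37) and *Hba-x* (3.11), and the part of other cell types in this comparison was not tested. Genes lower in the members than in these 372 cells were led by *Dlx6os1*, *Sp9*, *Dlx5*, *Helt*, *Dll3*, *Dlx1as* and *Gad2*. *Isl1*, a factor of striatal neurons, was at 3.24 CPM in the members and 17.9 CPM in them.

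For 167 cells only *Nkx2-1* was too high. They held *Olig2* at 139 CPM, *Ptch1* at 224 CPM, *Pax6* at 29.2 CPM and *Nrg1* at 29.2 CPM, and their *Meis2* level was 896 CPM. The 59 members with 1 *Nkx2-1* UMI lay on the same side, with *Olig2* at 82.0 CPM, *Pax6* at 62.8 CPM and *Nrg1* at 42.1 CPM, and the 515 with 0 had *Olig2* at 32.9 CPM, *Pax6* at 135 CPM and *Nrg1* at 218 CPM. For 74 cells only *Emx1* was present. They were deep (median 31415.5 UMIs) and held *Emx2* at 129.8 CPM, *Wnt8b* at 79.6 CPM and *Olig2* at 14.5 CPM. *Fgf8* and *Fgf17* alone kept out 11 cells, and a higher count of neuronal than AP genes 15 cells.

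The same gate in the septal explants kept 178 cells, at a median of 13103.5 UMIs, with 3713 other A>N cells. Folds were taken within that library and levels were not compared between the libraries, which differ in tissue, stage, kit and software version. Both groups were chosen with the same genes, so that genes which follow those of the gate could go the same way in either library. Of the genes higher in the vesicle, 167 had at least 50 UMIs in the septal A>N cells. Of these, 77 (46.1%) were higher in the septal explants too and 21 (12.6%) lower, and over all 11716 genes measured in both, 4.11% were higher and 14.6% lower. Of the genes lower in the vesicle, 1038 were measured, 697 (67.2%) were lower there too, and 35 higher.

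*Olig2* was at 58.6 CPM in the 178 septal cells against 29.9 CPM in the other A>N cells of the explants, a fold of 1.96 (interval 1.65 to 2.31), where the vesicle had 1.03. *Fgf15* had a fold of 1.91 (interval 1.74 to 2.09) and *Gsx1*, with 9 UMIs, of 1.93 (interval 0.857 to 3.80). *Meis2* (2.17, interval 2.01 to 2.33), *Meis1* (1.75), *Ednrb* (3.81), *Ptprz1* (1.91), *Apela* (3.48) and *Vwc2* (3.33) were higher in either library. Of the 15 highest genes of the vesicle, 9 were measured, 4 were higher (*Apela*, *Atxn1*, *Cpa4* and *Ermn*) and 3 lower (*Epha5*, *Fstl5* and *Gm29260*). The septal interval included 1 for *Atxn1*, *Ermn*, *Fstl5* and *Gm29260*. *Nrg1* had 8 UMIs in the septal cells, with a fold of 0.748 (interval 0.319 to 1.497), *Epha5* a fold of 0.251 (interval 0.108 to 0.498) and *Kcnip4* 0 UMIs against 6. *Pcdh8* had a fold of 0.778 (interval 0.449 to 1.26).

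**Figure D5:**
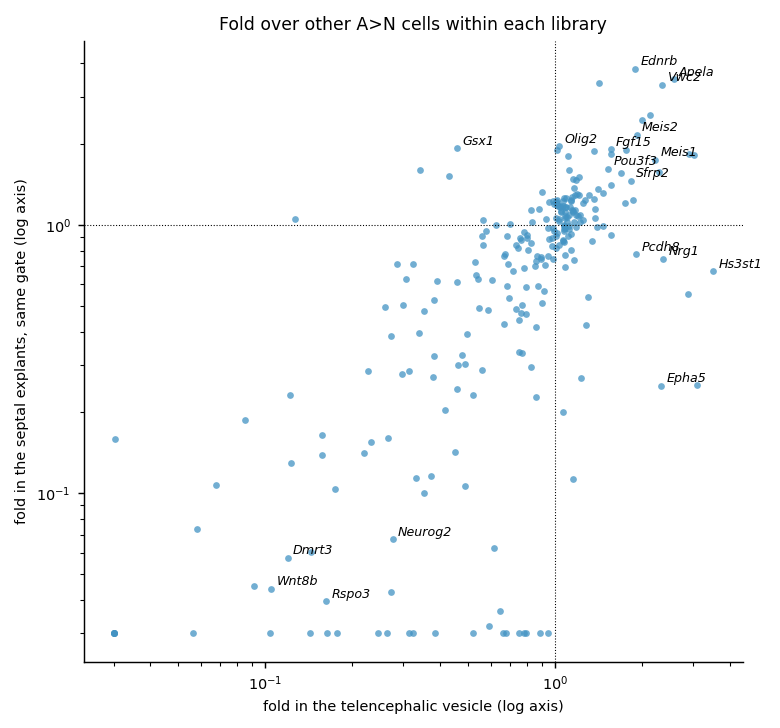
Fold of the members of the gate over other A>N cells in the telencephalic vesicle (horizontal) and in the septal explants (vertical), on logarithmic axes with values under 0.03 drawn at 0.03, for 259 listed or named genes measured in both and not used by the gate. Of these, 79 were above 1 and 130 below 1 in both, 36 were above 1 only in the vesicle, among them *Nrg1* and *Epha5*, and 14 only in the septal explants, such as *Gsx1*.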

How the data were processed

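The authors deposited UMI counts per gene and cell barcode, whole numbers that were not normalised. Per the labels, the vesicle counts were made with Cell Ranger 7.1.0 and those of the septal explants with Cell Ranger 2.1.1, both on mm10. The methods give default parameters for Cell Ranger 2.1.1. Whether intronic reads were counted is not stated for either library in the sources used here.

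The members, gene lists and comparisons were chosen with earlier results of these data known. The counts were summed over the cells of a group and scaled to CPM, with exact Poisson intervals for levels, exact Clopper-Pearson intervals for shares and exact conditional intervals for folds (numpy 2.4.6, scipy 1.17.1, pandas 2.3.3 and matplotlib 3.10.9 on Python 3.11.15). The fold and its interval were tested on simulated sums with known folds, which held counting error only and no spread between cells. A gene was called at a fold of 1.5 with at least 50 UMIs over both groups, without a test, since each condition was 1 library. No library was left out. Some genes are not reported here.

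Genes were named as the 15 highest and 10 lowest by the bound of the fold nearest to 1, the 10 highest by the smallest lower bound of the folds over the 3 similar groups, and the genes of the lists. The rankings of the lowest genes without non-neural barcodes and against the similar groups, the classes by *Pax6*, *Olig2* and depth, and the settings without cells over 50000 UMIs or without non-neural members were chosen after seeing the data. For shares of cells, each cell was thinned to 2500 UMIs (5000 as an alternative).

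Scrublet, as run in scanpy 1.11.5, marked 741 of 11498 barcodes as doublets (6.45%, where 9.20% would be expected), among them 18 members (3.14%), and these were kept. Gene positions came from GENCODE for GRCm38 and the windows before gene starts from RefSeq. The alternatives changed each threshold, the scaling and the comparison cells in turn.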

Additional observations from a re-analysis of the deposited data

How the results depend on the processing

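No paired analysis was possible because each condition was 1 library, and for the same reason no replicate could be left out. The number of members, 574, was 179 with *Gsx2* at 2 UMIs or more and 294 with the gate applied to cells thinned to 2500 UMIs. The genes higher in the members, 533, numbered 907 with a minimum of 20 UMIs, 240 with 200, 2050 with no minimum and 113 at a fold of 2. The genes lower, 2325, numbered 1214 with a minimum of 200 UMIs, 8388 with no minimum and 1401 at a fold of 2. Without cells over 50000 UMIs, a setting chosen after seeing the data, there were 542 members, 486 higher and 2221 lower genes. Of 1547 folds (119 genes under 13 settings), 1278 stayed within the counting interval, 252 left it, and 17 of genes past the threshold changed sides of 1. Among genes not past the threshold, 49 values of 19 genes lay on the other side of 1. With the gate at 2500 UMIs per cell, the called folds that changed sides were *Dll3* 1.21, *Dlx2* 1.28, *Dlx5* 1.46, *Fgf15* 0.655, *Fgf7* 5.36, *Gja4* 0, *Gsx1* 1.79, *Lhx6* 3.83, *Pcdh1* 4.47, *Sp9* 1.32 and *Tgfa* 0. Thinning lets in cells with more UMIs of the barred genes, and leaves few UMIs of rare ones, and the part of either in these folds was not tested. With non-neural barcodes left out of the comparison and not of the members, the called folds that changed sides were *C1qb* 4.69, *Heyl* 1.12, *Pcdh1* 1.04 and *Pf4* 1.36. *Gja4* was 0 with *Gsx2* at 2 UMIs or more, and *Pcdh1* 1.06 with no *Dlx1* or *Dlx2*. The cause of the shifts was not tested under any setting. Depth limits genes with few UMIs in the members.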
